A study of Mus musculus with 2 samples.

Results

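The 10 genes described here encode the enzymes, and an arginine carrier, with which macrophages make itaconate, nitric oxide, arginine, hydrogen peroxide and histamine. Earlier results of these data were known when the genes were chosen by symbol, for what their proteins do and not for a measured value. The genes are 10 of the 55536 annotated genes in the tables. They are Acod1, Nos2, Gch1, Slc7a2, Ass1, Asl, Arg1, Arg2, Sod2 and Hdc. All 10 symbols were found in the gene-level table of both libraries, and their 40 annotated transcripts were found in both kinds of transcript table.

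The libraries hold ribosomal-RNA-depleted total RNA from nuclei of bone-marrow-derived macrophages, primary phagocytes grown from the marrow of C57BL/6J mice. The labels call the RNA nucleoplasmic in one field and nuclear in others. A first exposure to lipid A, the endotoxin component that macrophages recognise, lasted 12 h at 100 ng/ml. A washout of 12 h followed, and a second exposure at 100 ng/ml lasted 50 min before the nuclei were taken. Both libraries belong to this 1 group, as biological replicates 1 and 2, made from 500 ng and 1 µg of RNA, so that replicate and RNA input cannot be told apart. The sex and age of the mice are given as not collected, and both libraries carry the same donor entry. No untreated library is part of the series, so the values below are levels in restimulated nuclei and differences between the libraries, not responses to lipid A.

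Background helps to read the levels. When macrophages sense endotoxin they induce Acod1, which turns the citrate cycle intermediate cis-aconitate into itaconate, and Nos2, which turns arginine into citrulline and nitric oxide. Nos2 needs tetrahydrobiopterin, whose synthesis Gch1 starts, and arginine, which Slc7a2 imports and which Ass1 and Asl rebuild from citrulline. The arginases Arg1 and Arg2 take the same arginine to ornithine and urea, and high Arg1 is the textbook mark of macrophages that repair tissue. Nuclear RNA holds transcripts on their way out of the nucleus, some with introns still in place, and says nothing of the mRNA in the cytoplasm or of the protein.

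The gene-level tables held 20612078 counts on annotated genes in replicate 1 and 22772081 in replicate 2, and a count of 0 allows up to 0.146 and 0.132 CPM (counts scaled to a common library total). Levels between genes are given in TPM, which also corrects for transcript length. Small RNA genes took 73.9% and 71.5% of TPM in replicates 1 and 2, and protein-coding genes 21.04% and 21.9%. Protein-coding genes whose counts in the libraries summed to 10 or more numbered 12140; their median was 3.58 TPM and their 90 percentile 28.7 TPM. The cells carried the markers of their label. Of 8 macrophage markers, 7 lay above that percentile, and the 8 summed to 1990 and 2106 TPM in replicates 1 and 2. Of the 8, 2 were higher and 6 lower in replicate 1 in TPM. In bulk RNA, fewer cells of a type and less RNA per cell cannot be told apart.

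The levels of the 10 genes spanned from near the detection limit to the top of the transcriptome. By mean TPM the order was Acod1, Sod2, Gch1, Nos2, Asl, Ass1, Hdc, Slc7a2, Arg2 and Arg1. Acod1, Sod2 and Gch1 had means above that 90 percentile, 6 genes exceeded the median and 4 were at or below it. Acod1 stood 4.29-fold above Sod2, Sod2 6.58-fold above Gch1, and Gch1 5.30-fold above Nos2, and in each of these steps both libraries of the higher gene exceeded both libraries of the lower. Nos2 and Asl overlapped between libraries, as did Asl and Ass1, and Arg2 and Arg1, so these neighbours do not differ beyond their spread in gene-level TPM. Hdc over Slc7a2 (2.11-fold) and Slc7a2 over Arg2 (2.48-fold) did not overlap in gene-level TPM. Ass1 over Hdc (1.61-fold) nearly did, with Ass1 at 3.29 TPM in replicate 1 and Hdc at 3.28 TPM in replicate 2. The intervals that the authors deposited with those values, of unstated level, were 2.65 to 4.44 and 2.72 to 4.42 TPM. These overlap, so Ass1 and Hdc are not clearly apart. Such intervals also overlap for Hdc in replicate 1 (1.16 to 2.49 TPM) and Slc7a2 in replicate 2 (1.11 to 2.01 TPM). The same holds for Slc7a2 (0.818 to 1.39 TPM) and Arg2 (0.423 to 0.913 TPM), both in replicate 1. By these intervals, Hdc and Slc7a2, and Slc7a2 and Arg2, are not clearly apart either. In TPM of protein-coding transcripts alone Sod2 averaged 68.5 TPM and Gch1 19.03 TPM. This widens the step from Acod1 to Sod2 and narrows the steps from Sod2 to Gch1 and from Gch1 to Nos2. Gch1 is then under 28.7 TPM, but that percentile is of TPM over all transcripts and was not computed for coding transcripts alone. The authors' index-based transcript table gave the same places to 6 genes in both libraries, namely Acod1, Sod2, Gch1, Ass1, Hdc and Slc7a2. In both kinds of table Asl stood above Nos2 in replicate 1 and Nos2 above Asl in replicate 2.

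**Figure D1:**
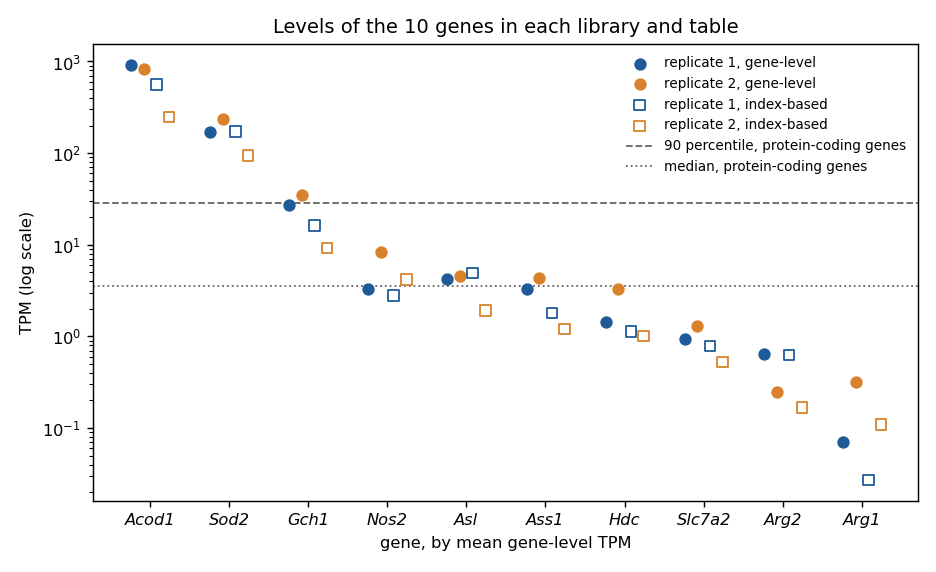
TPM of each gene on a log scale, with replicate 1 in blue and replicate 2 in orange, filled circles for the gene-level table and open squares for the index-based table. Acod1 and Sod2 lie above the dashed 90 percentile line in every library and table, Arg2 and Arg1 lie below 1 TPM, and in both tables Nos2 lies below Asl in replicate 1 and above it in replicate 2.

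Acod1 (chr14:103046977-103056573, plus strand of mm10) was the highest of the 10. It had 73432 counts in replicate 1 and 69073 in replicate 2, which gave 920.56 and 830.85 TPM, 875.7 ± 63.4 TPM (SD, n = 2). It ranked 25 among the 12140 protein-coding genes by mean TPM, 21 in replicate 1 and 27 in replicate 2. In the same libraries Lyz2, the macrophage lysozyme gene, had 1031.62 and 988.51 TPM. Acod1 has 1 annotated transcript, of 5 exons, so every read of the gene was assigned to that coding transcript by the annotation. Reads of unspliced Acod1 precursor over those exons cannot be told apart here. The log2 ratio of replicate 1 over replicate 2 was 0.15 in the gene-level table and -0.01 in the index-based one, so the libraries gave no steady direction. Acod1 exceeded Nos2 279-fold in replicate 1 and 98.8-fold in replicate 2.

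Nos2 (chr11:78920787-78960254, plus strand), the inducible nitric oxide synthase, was one of the members that passed the test between the libraries. It had 435 counts and 3.30 TPM in replicate 1 and 1150 counts and 8.41 TPM in replicate 2, 5.86 ± 3.61 TPM (SD, n = 2). Replicate 1 lay just under the median protein-coding gene, at rank 6259, and replicate 2 above it, at rank 3746. The log2 ratio was -1.34, that is 2.52-fold higher in replicate 2 (95% counting interval 2.26 to 2.83; adjusted p = 4.81e-66, two-sided exact binomial test). The index-based table gave 3.02-fold in the same direction. Among the macrophage markers, Fcgr1 had 47.63 TPM in replicate 1 and 117.47 TPM in replicate 2, the direction of Nos2. So did Cd68 (105.97 and 177.07 TPM) and Spi1 (18.73 and 33.91 TPM). Mertk (49.43 and 61.14 TPM), Adgre1 (449.41 and 489.95 TPM) and Itgam (40.90 and 44.30 TPM) differed less in that direction. Csf1r (245.94 and 193.17 TPM) and Lyz2 (1031.62 and 988.51 TPM) were higher in replicate 1. The part of such differences in the Nos2 ratio was not tested. The p-values hold counting error only and compare these libraries; with a dispersion of 0.04 set by hand in the edgeR exact test, which allows for spread between cultures, the adjusted p of Nos2 was 0.104.

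Gch1 (chr14:47153895-47189413, minus strand), which encodes GTP cyclohydrolase, stood well above the synthase that its product serves. It had 2609 counts and 27.46 TPM in replicate 1 and 3368 counts and 34.60 TPM in replicate 2, 31.0 ± 5.05 TPM (SD, n = 2). Replicate 1 lay just under its own library's 90 percentile of 27.9 TPM, and replicate 2 above its 29.7 TPM. The ratio to Nos2 was 8.32 in replicate 1 and 4.11 in replicate 2. The log2 ratio between the libraries was -0.30, and -0.35 in the index-based table, short of the threshold of 1. A pair of processed pseudogenes lies inside Gch1 introns: Gm18811 on the same strand had 97 and 185 counts in replicates 1 and 2, and Gm49134 on the opposite strand had 58 and 57. Neither overlaps an exon of Gch1 or the retained-intron transcript described below.

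Slc7a2 (chr8:40862396-40922308, plus strand), which encodes a cationic amino acid transporter that carries arginine into the cell, was low. It had 193 counts and 0.94 TPM in replicate 1 and 268 counts and 1.29 TPM in replicate 2, 1.11 ± 0.247 TPM (SD, n = 2), at the 27.4 percentile of protein-coding genes. Its log2 ratio between the libraries was -0.41 (adjusted p = 0.00932, exact binomial test), lower in replicate 1 and short of the threshold. Gm26584, a long noncoding RNA on the opposite strand, overlaps 3252 bases of the Slc7a2 gene span and had 132 and 311 counts in replicates 1 and 2. How many of those bases are exon was not determined. The labels and headers do not say whether reads were assigned by strand, so reads in that overlap are uncertain.

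Ass1 and Asl, which rebuild arginine from citrulline in sequence, lay close together in gene-level TPM, near the median protein-coding gene. Ass1 (argininosuccinate synthase; chr2:31470207-31520672, plus strand) had 120 counts and 3.29 TPM in replicate 1 and 194 counts and 4.29 TPM in replicate 2. Asl (argininosuccinate lyase; chr5:130011258-130029247, minus strand) had 217 counts and 4.21 TPM in replicate 1 and 267 counts and 4.62 TPM in replicate 2. Their means were 3.79 ± 0.707 TPM for Ass1 and 4.42 ± 0.29 TPM for Asl (SD, n = 2 each). The log2 ratio of replicate 1 over replicate 2 was -0.62 for Ass1 (adjusted p = 7.99e-04) and -0.23 for Asl (adjusted p = 0.169, both exact binomial tests), neither past the threshold. Asl over Ass1 in gene-level TPM was 1.28 in replicate 1 and 1.08 in replicate 2, within the spread of the libraries. In the index-based table it was 2.71 and 1.60 in replicates 1 and 2. There both libraries of Asl (4.90 and 1.93 TPM) exceeded both of Ass1 (1.81 and 1.20 TPM), so the distance between these genes depends on the table.

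The arginases were at the bottom. Arg1 (chr10:24915221-24927484, minus strand), the cytosolic arginase of liver and of tissue-repair macrophages, had 3 counts in replicate 1 and 6 in replicate 2. These are 0.146 CPM (95% Poisson interval 0.0300 to 0.425) and 0.263 CPM (0.0967 to 0.573), against limits from a count of 0 of 0.146 and 0.132 CPM. Its 0.32 TPM in replicate 2 was mostly 0.23 TPM of the retained-intron transcript Arg1-202, on 2 counts; the coding transcript Arg1-201 had 3 and 4 counts, 0.07 and 0.09 TPM, in replicates 1 and 2. Arg1-203, another retained-intron transcript, was at 0 TPM in the alignment-based table and at 14.5% of the gene's TPM in replicate 2 of the index-based one. With 9 counts in all, Arg1 was not tested in the gene-level table. Arg2 (chr12:79130777-79156301, plus strand), the mitochondrial arginase, had 26 counts and 0.65 TPM in replicate 1 and 11 counts and 0.25 TPM in replicate 2, 0.45 ± 0.283 TPM (SD, n = 2). The Arg2 ratio was 2.41-fold higher in replicate 1 (95% counting interval 1.18 to 5.55; log2 ratio 1.27; adjusted p = 0.0346, exact binomial test), and 1.63-fold with an adjusted p of 0.0611 in the index-based table, where it did not pass. The deposited TPM intervals of Arg2, of unstated level, were 0.423 to 0.913 in replicate 1 and 0.122 to 0.425 in replicate 2. They overlapped slightly.

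By level, the synthase side of arginine use exceeded the arginase side in every library and table. Nos2 over Arg2 in gene-level TPM was 5.08 in replicate 1 and 33.6 in replicate 2, and 4.49 and 24.9 in the index-based table. Nos2 over Arg1 was 47.1 in replicate 1 and 26.3 in replicate 2, on the few Arg1 counts given above. Nos2 was lower and Arg2 higher in replicate 1, so their ratio differed more between the libraries than either gene did. Reads at Arg2 are uncertain in part: Vti1b on the opposite strand overlaps its last 285 bases (224 and 240 counts in replicates 1 and 2). The antisense gene Gm48780 overlaps 997 bases of the Arg2 gene span (30 and 20 counts). How many of those 997 bases are exon was not determined.

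Sod2 (chr17:13006846-13040063, plus strand), the manganese superoxide dismutase of the mitochondrial matrix, was the second of the 10 by level. It had 16251 counts and 171.94 TPM in replicate 1 and 14600 counts and 236.35 TPM in replicate 2, 204.1 ± 45.5 TPM (SD, n = 2), at rank 132 of protein-coding genes. The libraries were ordered one way by counts and the other way by TPM: the log2 ratio of replicate 1 over replicate 2 was 0.22 from scaled counts, 0.14 from index-based counts and -0.46 from gene-level TPM. The deposited effective length of the gene, by which TPM divides counts, was 2850 bases in replicate 1 and 1809 in replicate 2, since short transcripts held more of its reads in replicate 2. In TPM of protein-coding transcripts alone, Sod2 had 75.91 in replicate 1 and 61.07 in replicate 2, the direction of the counts.

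Hdc (chr2:126593667-126619299, minus strand), histidine decarboxylase, which makes histamine and is best known from mast cells and basophils, was low but measured in both libraries. It had 86 counts and 1.42 TPM in replicate 1 and 168 counts and 3.28 TPM in replicate 2, 2.35 ± 1.32 TPM (SD, n = 2). Replicate 2 stood 1.86-fold above replicate 1 in scaled counts (95% counting interval 1.43 to 2.45; adjusted p = 9.29e-06, exact binomial test), a log2 ratio of -0.90 that falls short of the threshold. Of 8 mast cell and basophil markers, 3 had 0 counts in both libraries, and the 8 summed to 0.60 and 0.78 TPM in replicates 1 and 2, with Kit the highest at 0.40 and 0.72 TPM. The 7 neutrophil markers summed to 0.93 and 1.63 TPM. Hdc exceeded either sum in each library by the TPM of all its transcripts. In its protein-coding transcript alone, at 0.67 and 1.41 TPM, it exceeded the mast cell and basophil sum and lay below the neutrophil sum. The marker sums are gene-level and hold all transcripts. The part of such cells in its level was not tested.

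Of the 9 members tested, 2 passed, Nos2 lower and Arg2 higher in replicate 1, where 6.65% of all 16140 genes tested passed. To pass, a gene needed an adjusted p under 0.05 and a ratio of at least 1 on the log2 scale in either direction. Of the 9 genes 3 had a ratio above 0 and 6 below 0; their median log2 ratio was -0.30, against -0.01 over all genes tested and 0.03 over protein-coding genes. An adjusted p under 0.05 alone was reached by 8 of the 9, Asl being the exception, and by 38.8% of all genes tested. In the index-based table Nos2 and Arg1 passed, Arg1 on 3 and 12 counts in replicates 1 and 2, where 9.26% of genes did. At a dispersion of 0.04 none of the 9 passed, where 1.21% of all genes did. In the edgeR exact test at a dispersion of 0.01 only Nos2 and Hdc kept an adjusted p under 0.05, and at 0.04 no member did. The middle of all ratios, from the 25 to the 75 percentile, ran from -0.36 to 0.29 and held Acod1, Sod2, Asl and Gch1.

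**Figure D2:**
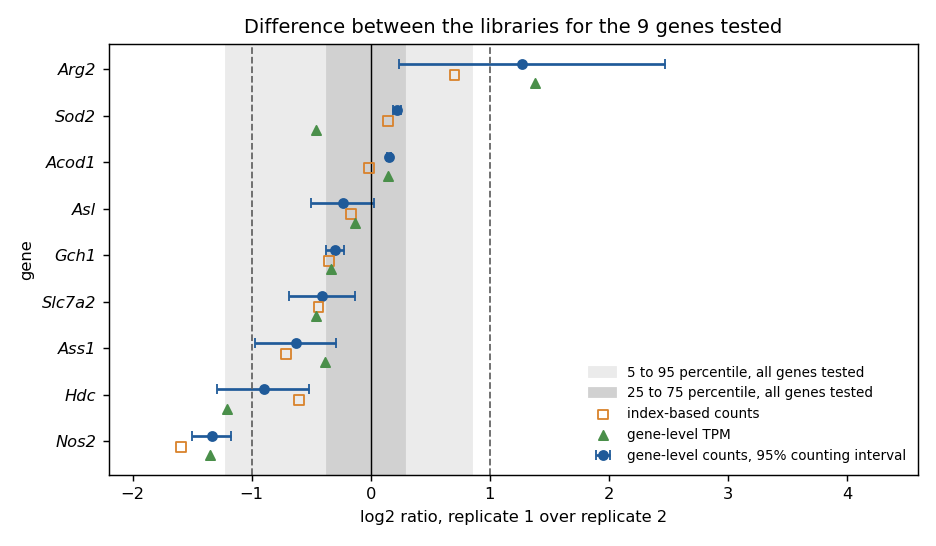
Log2 ratio of replicate 1 over replicate 2 for the 9 genes tested: circles with 95% counting intervals for gene-level counts, squares for index-based counts and triangles for gene-level TPM. Dashed lines mark the threshold of 1 in either direction and grey bands the spread over all genes tested; Nos2 (-1.34) and Arg2 (1.27) lie outside the lines, and Sod2 is the gene whose triangle (-0.46) lies across 0 from its circle (0.22).

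The transcripts behind these levels differed in kind. Of the 8 members with 20 or more counts in each library, 7 have several annotated transcripts, and 6 of those 7 have one that is not annotated as protein-coding. The share of a gene's TPM in such transcripts was highest in Sod2, at 55.9% in replicate 1 and 74.2% in replicate 2 of the alignment-based table, and 77.6% and 85.1% in the index-based one. Hdc followed with 52.8% and 57.0%, then Gch1 with 42.0% and 36.1%, Ass1 with 31.6% and 15.4%, and Asl with 16.2% and 11.0%. Protein-coding genes that have such a transcript and at least 100 counts in each library numbered 6658, and their medians were 25% and 27.3% in the alignment-based table and 36.9% and 38.8% in the index-based one. Nos2 had 0 in the alignment-based table, where all its reads fell to Nos2-201, but 20.7% and 29.4% in the index-based one, so its makeup depends on the table. That index-based share was the processed transcript Nos2-202, and the coding Nos2-203 held a further 12.1% and 17.1% there.

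**Figure D3:**
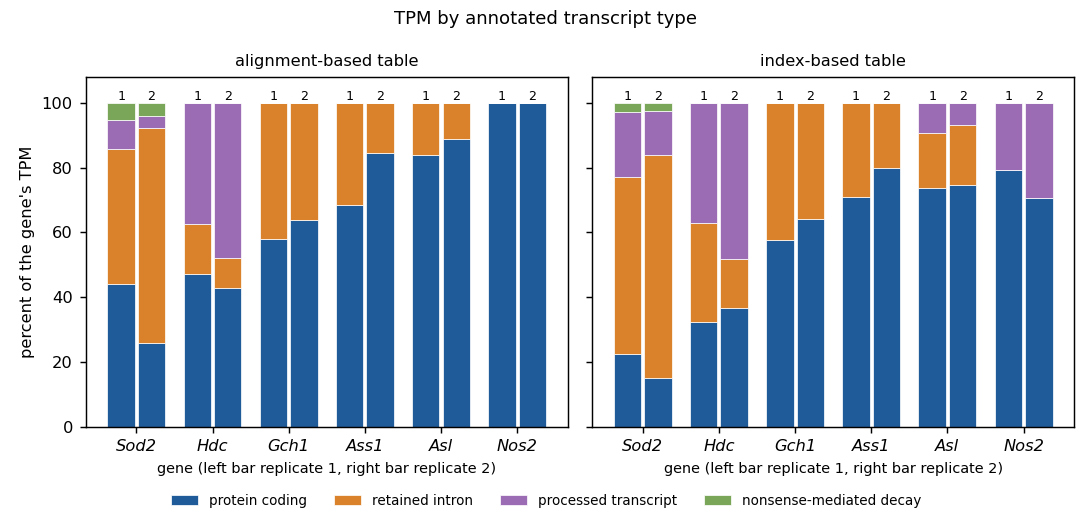
Percent of each gene's TPM by annotated transcript type, with the alignment-based table on the left and the index-based table on the right, and replicate 1 as the left bar of each pair. The protein-coding part of Sod2 is the smallest in every library of both tables, retained introns make up most of its remainder, and Nos2 is wholly protein-coding in the alignment-based table only.

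Most of the noncoding share of Sod2 was in transcripts annotated as retained intron. They held 41.7% of its TPM in replicate 1 and 66.5% in replicate 2 (54.8% and 68.9% in the index-based table). The medians over 5156 genes with such a transcript were 19.9% and 22.8% in replicates 1 and 2 of the alignment-based table. Sod2-203, of 334 bases, had 54.29 TPM in replicate 1 and 109.39 TPM in replicate 2, and Sod2-206, of 584 bases, had 12.19 and 34.85 TPM. The coding Sod2-201, of 5861 bases, had 75.77 and 61.07 TPM. By reads the picture is another: Sod2-201 held 14179 and 11830 counts, 87.3% and 81.0% of the gene's counts in replicates 1 and 2, while Sod2-203 held 215 and 555 and Sod2-206 148 and 471. The high TPM of the short transcripts thus stands on few reads divided by a small length. Reads of unspliced Sod2 precursor over the same bases cannot be told apart here from reads of these transcripts. The intervals that the authors deposited with Sod2-203, of unstated level, were 45.7 to 59.7 TPM in replicate 1 and 97.4 to 115 TPM in replicate 2.

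Sod2-206 and Sod2-203 cover the opposite ends of the same intron, the 2133-base intron 2 of Sod2-201. Sod2-206 runs through exon 2 (203 bases) and 171 bases on into the intron, and Sod2-203 starts 180 bases before exon 3 (117 bases). Their borders are shown because they differ from the coding Sod2-201, where exon 2 is joined to exon 3. The processed transcript Sod2-207 (15.25 TPM in replicate 1, 8.55 in replicate 2) also runs 47 bases on into intron 2 and so holds the whole stretch printed for Sod2-206. The sequences come from the GENCODE M21 transcripts on mm10, 5′ to 3′ on the plus strand, with exon in capitals and retained intron in lower case, at chr17:13008347-13008426 for Sod2-206 and chr17:13010480-13010559 for Sod2-203.
Sod2-206, exon 2 into intron 2: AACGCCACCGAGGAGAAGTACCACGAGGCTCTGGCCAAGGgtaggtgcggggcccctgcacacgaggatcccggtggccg
Sod2-203, intron 2 into exon 3: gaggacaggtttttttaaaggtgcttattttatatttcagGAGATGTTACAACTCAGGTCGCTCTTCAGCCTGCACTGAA
The lower-case run opens with gt in Sod2-206 and closes with ag in Sod2-203, the usual ends of an intron, so each transcript keeps a splice site that the coding transcript uses. Sod2-203 had more TPM than Sod2-206 in both libraries of both tables.

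The retained-intron transcript of Gch1 is of another kind. Gch1-202 is a single exon of 3508 bases, of which 3476 lie outside the exons of the coding Gch1-201, and it surrounds the 32-base exon 4. It had 1257 counts and 11.52 TPM in replicate 1 and 1414 counts and 12.47 TPM in replicate 2, 12.0 ± 0.672 TPM (SD, n = 2). Gch1-201 had 1352 counts and 15.94 TPM in replicate 1 and 1954 counts and 22.12 TPM in replicate 2. The difference between the libraries in gene-level TPM of Gch1 thus lay mostly in the coding transcript, while Gch1-202 was nearly level. The short exon 4 with 40 bases of intron on each side is given on the minus strand, at chr14:47158823-47158934, again with exon in capitals.
Gch1-202, intron 3 through exon 4 into intron 4: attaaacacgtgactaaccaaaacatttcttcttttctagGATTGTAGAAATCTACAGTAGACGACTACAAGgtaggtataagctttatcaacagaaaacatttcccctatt
Since nearly all of Gch1-202 is intron, reads of this transcript and reads of unspliced Gch1 precursor over the same bases cannot be told apart here.

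**Figure D4:**
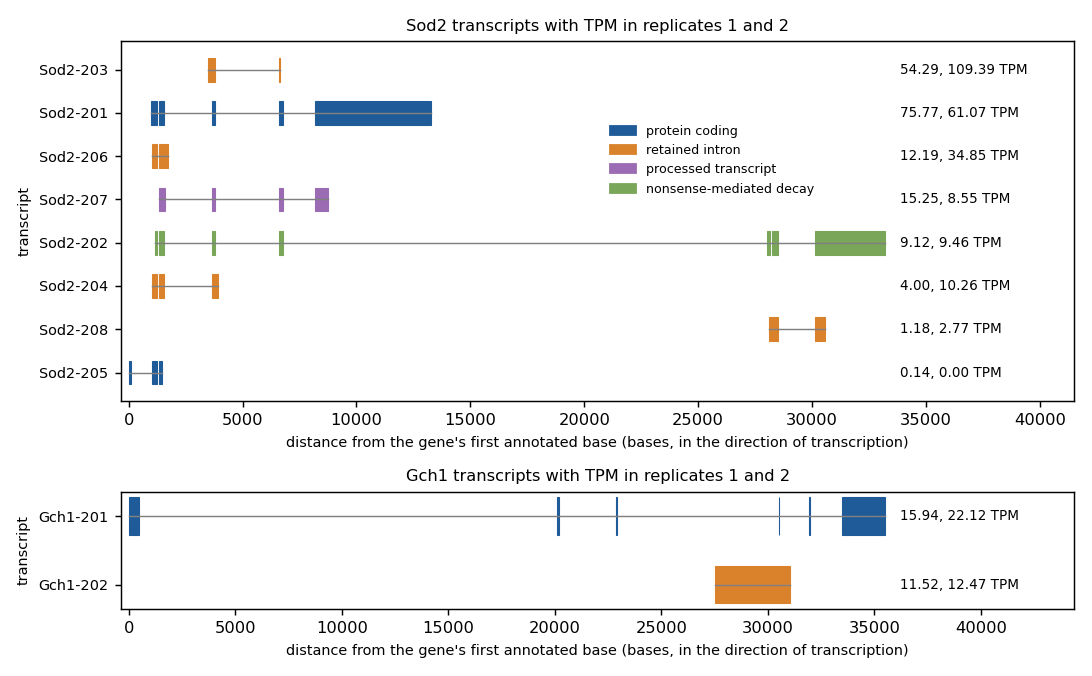
Exons (boxes) and introns (lines) of the annotated Sod2 and Gch1 transcripts, by distance in bases from the gene's first annotated base in the direction of transcription, with alignment-based TPM in replicates 1 and 2 at the right. Sod2-203 and Sod2-206 are short boxes beside Sod2-201 with 54.29 and 109.39 and with 12.19 and 34.85 TPM, and Gch1-202 is 1 block over the thin exon 4 of Gch1-201.

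In several of the other members the transcript that came first differed between the tables or between the libraries. The transcript with the highest TPM was the same in both libraries and both tables for 3 of the 7 genes, Nos2-201, Gch1-201 and Ass1-201. Slc7a2-201 led in the alignment-based table (0.44 TPM in replicate 1, 0.79 in replicate 2) and Slc7a2-203 in the index-based one. These are coding transcripts with the same number of exons, 12, and different starts. The coding Slc7a2-202 and Slc7a2-204 held 20.2% and 13.8% of the gene's TPM in replicate 1 and 24.03% and 14.7% in replicate 2 of the alignment-based table. Asl-205 led in all but replicate 1 of the index-based table, where Asl-206 did. The coding Asl-202 held 19.7% and 19.9% and the retained-intron Asl-208 16.2% and 11.04% of alignment-based TPM in replicates 1 and 2, and the coding Asl-201 held 20.99% and 17.5% in the index-based table only. In Hdc the coding Hdc-201 had 0.67 and 1.41 TPM in replicates 1 and 2. The processed transcript Hdc-203, of 529 bases, had 0.43 and 1.57 TPM, on 4.45 and 18.3 estimated counts. In both tables Hdc-201 led in replicate 1 and Hdc-203 in replicate 2. Hdc-204, a retained-intron transcript of 4518 bases, held 31.8 and 43.7 estimated counts, 36.9% and 26.02% of the gene's counts. Hdc-202, a processed transcript, passed 10% of TPM in replicate 1 of the index-based table, at 16.8%. The coding TPM of Hdc kept the direction of the gene, lower in replicate 1. In Ass1 the retained-intron Ass1-204 had 0.97 TPM on 8.59 estimated counts in replicate 1 and 0.23 TPM on 2.34 in replicate 2.

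The other genes of these pathways, 72 in 8 lists, were measured beside the members. Of the 56 with enough counts to test, 3 were higher and 0 lower in replicate 1, and their median log2 ratio was 0.01, against -0.01 over all genes. At the share of all genes that passed, 6.65%, this is not a result about the lists. By level, 4 of the 72 exceeded the 90 percentile given above, and 8 had 0 counts in both libraries.

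Arginine transport had Slc3a2, the shared heavy chain of several amino acid transporters, at 117.04 TPM in replicate 1 and 150.77 TPM in replicate 2. Slc7a1, the constitutive cationic amino acid transporter, had 14.14 and 13.89 TPM in replicates 1 and 2, above Slc7a2 in both. Slc25a15, the mitochondrial ornithine carrier, was 2.35-fold higher in replicate 1 on 59 counts, against 26 in replicate 2 (adjusted p = 8.04e-04, exact binomial test); 1 of the 7 transport genes passed. In the list of the urea cycle and other arginine use 0 of the 6 tested passed. There Oat, ornithine aminotransferase, had 5.04 and 4.19 TPM and Prmt1, an arginine methyltransferase, 4 and 3.25 TPM in replicates 1 and 2. The liver enzymes Cps1 and Otc, and Nags and Agmat, had 0 counts in both libraries. Of the urea cycle enzymes and arginases, then, Ass1, Asl and Arg2 were measured, while Arg1 had only the 3 and 6 counts given above and the steps that feed citrulline in liver were at 0 counts.

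Of the nitric oxide list 3 of 8 genes had enough counts to test and none passed. Nos1, the neuronal synthase, had 0 counts in both libraries of the gene-level table but 0.265 and 0.0647 TPM in replicates 1 and 2 of the index-based one, so its level depends on the table. Nos3, the endothelial synthase, had 0 counts in replicate 1 and 1 in replicate 2. Nos2 was thus the only synthase gene with 10 or more gene-level counts. Gucy1b1, a subunit of the nitric oxide receptor guanylate cyclase, had 0 counts in both libraries. Nosip and Nostrin, which bind the endothelial synthase, had 3.49 and 2.87 TPM in replicate 1 and 5.25 and 2.13 TPM in replicate 2.

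In tetrahydrobiopterin synthesis the genes of the later steps had lower levels than Gch1. Pts, which encodes the enzyme of the next step, had 5.70 TPM in replicate 1 and 8.71 TPM in replicate 2, and Spr, sepiapterin reductase of the last step, 1.05 and 1.63 TPM. Qdpr, which regenerates the cofactor, had 3.72 and 3.43 TPM. Gchfr, the feedback regulator of Gch1, had 0 counts in replicate 1 and 1 in replicate 2. None of the 6 genes tested passed.

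Ornithine leads on to the polyamines, where 12 genes were tested and none passed. Sat1, the acetyltransferase that starts polyamine breakdown, was the highest gene of this list, at 174.65 TPM in replicate 1 and 226.99 TPM in replicate 2. Azin1, antizyme inhibitor, had 27.92 and 28.30 TPM. Odc1, ornithine decarboxylase, had 16.48 TPM in replicate 1 and 9.50 TPM in replicate 2, above both arginases by more than the spread of the libraries.

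Around itaconate, 1 of 14 genes passed. Sdha, the catalytic subunit of succinate dehydrogenase that itaconate inhibits, had 24 TPM in replicate 1 and 27.35 TPM in replicate 2. Acod1 exceeded Sdha by more than the spread of the libraries. Clybl, the citramalyl-CoA lyase of itaconate breakdown, was 2.74-fold higher in replicate 1 on 27 counts, against 10 in replicate 2 (adjusted p = 0.0141, exact binomial test). Neither Clybl nor Slc25a15 reached 100 counts over both libraries.

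Among the superoxide and peroxide enzymes Sod2 was the highest dismutase: Sod1, the cytosolic one, had 6.49 TPM in replicate 1 and 10.16 TPM in replicate 2, and Sod3, the extracellular one, 1 and 0 counts. Prdx5, a peroxiredoxin, had 86.26 and 112.26 TPM and Gpx1, glutathione peroxidase, 53.71 and 46.76 TPM. Cat, catalase, passed: it had 1298 counts and 16.34 TPM in replicate 1 and 608 counts and 7.34 TPM in replicate 2, 2.23-fold higher in replicate 1 (adjusted p = 6.94e-63, exact binomial test). At a dispersion of 0.04 the adjusted p was 0.224 for Cat, 0.478 for Slc25a15 and 0.576 for Clybl. In the histamine list 3 of 8 genes were tested and none passed. Hrh2, a histamine receptor, had 1.12 and 1.17 TPM, and Slc18a2, the vesicular amine carrier, 0.54 and 0.49 TPM; Aoc1 and Maob, enzymes of amine breakdown, had 0 counts in both libraries.

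**Figure D5:**
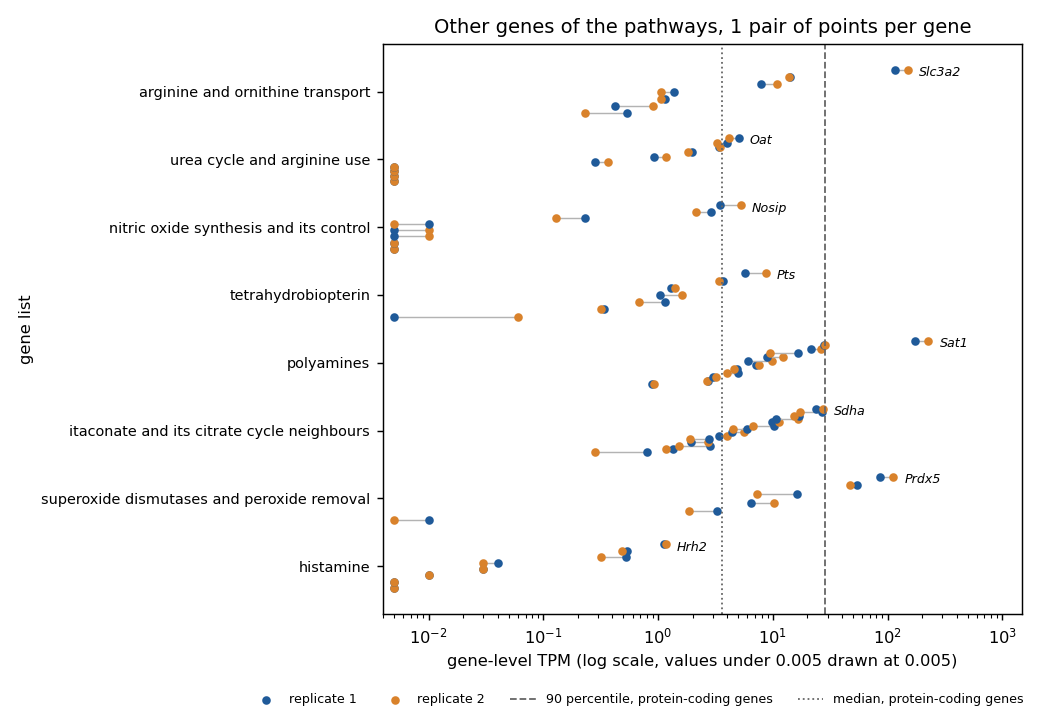
Gene-level TPM on a log scale for the 72 other genes in their 8 lists, 1 joined pair of points per gene, with replicate 1 in blue and replicate 2 in orange and values under 0.005 drawn at 0.005. The name in each list is that of its highest gene; Slc3a2, Sat1, Prdx5 and, just below Prdx5, Gpx1 are the 4 right of the dashed 90 percentile line by mean TPM.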

How the data were processed

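Per the labels, nuclear ribosomal-RNA-depleted RNA of 2 libraries of 1 group was sequenced. Per the file headers, all tables use mm10 and GENCODE M21, replicates were kept apart, transcriptome alignments underlie the gene-level and alignment-based transcript tables, and a transcript index the index-based one. For the aligner, the quantifier and the handling of strand, nothing is stated in the sources used here. Deposited expected counts are estimated and need not be whole, since the authors' tables divide reads among transcripts. The deposited TPM values divide counts by effective length, so short transcripts gain TPM from few reads. The authors deposited interval bounds for TPM, whose level is not stated; they surround a posterior mean and need not hold the TPM itself. In the index-based table protein-coding genes with 100 or more counts in each library had a median of 0.671 and 0.316 of their gene-level TPM in replicates 1 and 2, so its TPM was not used to compare the libraries; its mean over both serves as an alternative level.

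Rows naming no annotated gene were left out: 26248 numeric rows (7.27e-05% and 8.78e-05% of counts) and 97 control rows (0.144% and 0.0809%). Counts were rounded to whole numbers and scaled by TMM (edgeR 4.0.16, R 4.3.3). A pair of libraries leaves no residual degrees of freedom for a model, so each gene with 10 or more counts over both libraries was compared by a two-sided exact binomial test (scipy 1.17.1), Benjamini-Hochberg adjusted over all 16140 such genes. Passing took an adjusted p under 0.05 and a log2 ratio of at least 1 in size, with 0.5 added to each count. Intervals, limits and p-values cover counting error only; nothing says whether the libraries came from separate cultures. Alternatives covered scaling (DESeq2 1.42.0 size factors, library totals), count minimums, the table, the added count and edgeR's exact test at a preset dispersion of 0.01 or 0.04. Comparing TPM of coding transcripts alone, and ratios of TPM, were chosen after the data were seen.

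All 10 members are named. Of each pathway list the 2 genes with the highest mean TPM, those that passed and those at 0 counts in both libraries are named, except for 1 gene that is not reported here, and any further list genes were picked with their values in view. Transcripts are named that hold 10% or more of a gene's TPM, and other cell types were checked by markers: 5 for fibroblasts summed to 0.20 and 0.08 TPM, 4 for hepatocytes to 0 and 0.03, 4 for T cells to 0.02 and 0, 3 for B cells to 0.02 and 0.05, and 3 for natural killer cells to 0 and 0, in replicates 1 and 2. The members and lists were chosen with earlier results of these data known.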

Additional observations from a re-analysis of the deposited data

How the results depend on the processing

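The number of members past the test, 2, was unchanged with library totals, DESeq2 size factors, no count minimum and the index-based table, though there Arg1 took the place of Arg2. It was 1 with at least 100 counts over both libraries, 1 with a dispersion of 0.01 and 0 with a dispersion of 0.04; fewer genes enter at the higher minimum, and the edgeR exact test at a set dispersion adds spread. Of the pathway genes 3 passed, against 1 with at least 100 counts, 1 in the index-based table and 0 with a dispersion of 0.04. Of 63 alternative values for the members' ratios 57 kept direction and, where a test was run, the call. Members short of the ratio threshold had no call to lose. The ratios from gene-level TPM had no test, and among them Hdc reached -1.21, against -0.90 from counts. Arg2 lost its call in the index-based table (adjusted p = 0.0611) and at both dispersions (0.162 and 0.763), and Nos2 at the dispersion of 0.04, all with the direction kept. Acod1 turned to -0.012 in the index-based table (0.15 in the report, 0.14 to 0.23 under the other settings), for which the cause was not tested, and Sod2 to -0.46 in gene-level TPM, where effective length enters. Nos2 had the largest ratio by TMM scaling, but Arg2 with library totals (1.35 against -1.26) and in gene-level TPM (1.38 against -1.35). Protein-coding transcripts alone took Sod2 to 68.5 TPM (204.1 with all) and Gch1 to 19.03 TPM (31.03). The median member level, 4.10 TPM, was 2.46 TPM in the index-based table and 3.30 to 4.46 TPM with 1 library left out. Without replicate 2, 2 genes rather than 3 lay above the 90 percentile, as Gch1 fell under it. The number of genes, of 7, whose top transcript was protein-coding, 6, was 5 to 7 with 1 library left out. No paired analysis was possible because both libraries belong to 1 group. Depth limits Arg1, at 3 and 6 counts, and Arg2, at 26 and 11 counts, in replicates 1 and 2.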
